A study of Rattus norvegicus with 3 samples.

Results

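The tissue kallikreins of the rat Klk1 group were examined in kidney RNA from male Sprague-Dawley rats. The 7 genes were Klk1, Klk1b3, Klk1c2, Klk1c8, Klk1c9, Klk1c10 and Klk1c12, among 26785 genes with a probe. They were found on the array by the RefSeq accession of each probe, and each had 1 probe printed as 1 spot. The genes were selected on their log2 ratios in these same arrays, so the values given for them are a description without a test. Rats obtained at 5 weeks of age were acclimated and then received 200 ppm γ-aminobutyric acid (GABA) in the drinking water for 3 weeks (G200) or no GABA (control), and both groups ate the same standard diet. On each of 3 arrays of a single slide, G200 RNA carried the red dye Cy5 and control RNA the green dye Cy3, and the dyes were not exchanged on any array. For 1109 probes with repeated spots, the median SD of log2 green intensity was 0.096 between arrays and 0.16 between spots of an array. Single genes differed more, such as Alb with a green intensity of 13578, 39597.5 and 40913. The labels give 3 rats per group, and whether the control RNA was that of 1 rat per array or a pool cannot be told apart here. The labels call the tissue a non-tumor region of kidney, and the kidney transcripts Umod, Aqp2 and Slc34a1 were well above background in both colours on all 3 arrays. In green the liver marker Ttr was brighter than Umod, at 32336, 37909.5 and 36727.5 beside 14875, 21270 and 18733. In red Ttr was at 30016, 4248.5 and 1779.5, and Umod was at 99867, 60094 and 79730.

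Tissue kallikreins are serine proteases that cut kininogens and release kinins, short peptides that widen blood vessels and increase sodium excretion through bradykinin receptors. In the kidney Klk1 is made mainly in the connecting tubule, and its product passes into urine. The other genes of the rat group arose by duplication and are best known from salivary and male accessory glands.

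Replicate 1 stood apart from the other arrays for Klk1, Klk1b3, Klk1c2 and Klk1c8, and each value below is therefore given by array. A log2 ratio of 0 means equal signal from G200 and control after dye normalization. A probe was called well above background by the mark of the scanner software, and 5 of the 7 genes reached that mark on all 3 arrays in at least 1 colour.

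Klk1, the main kinin-releasing protease of the kidney, had log2 ratios of 2.60 on replicate 1, -0.11 on replicate 2 and 0.21 on replicate 3. Before normalization, its red intensity above local background was 3357.5, 114.5 and 239 on these arrays. Its green intensity was 159.5, 102.5 and 105. The signal of the Klk1 probe was therefore high in the G200 sample of replicate 1 and near equality on the other arrays. The mean log2 ratio was 0.90 ± 1.48 (SD, n = 3).

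Klk1b3, which encodes the gamma subunit of the nerve growth factor complex, had log2 ratios of 2.61, -0.11 and 0.30 on replicates 1, 2 and 3. Its red intensity was 2674, 68.5 and 141, and its green intensity was 121, 69.5 and 59.5. The pattern over arrays followed that of Klk1, and the mean was 0.93 ± 1.47 (SD, n = 3).

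Klk1c2, the gene of tonin, a protease that forms angiotensin II, had log2 ratios of 2.26, 0.04 and 0.13. Its red intensity was 1082.5, 31.5 and 65.5 on replicates 1, 2 and 3, and the green intensity was 53, 35 and 39. Klk1c8 had log2 ratios of 2.03, -0.03 and 0.01, with red intensities of 842, 25 and 44 and green intensities of 48, 34 and 35.5. For both genes the red signal of replicate 1 alone was high, and the means were 0.81 ± 1.25 for Klk1c2 and 0.67 ± 1.18 for Klk1c8 (SD, n = 3).

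Klk1c10, known as T-kininogenase, was the only tested gene of the group with lower signal in G200 on all 3 arrays. It had log2 ratios of -0.69, -0.49 and -0.44, and the mean was -0.54 ± 0.13 (SD, n = 3). The green intensity of 45, 41.5 and 33.5 was well above background on all 3 arrays, whereas the red intensity of 9, 7 and 4 was on none. The red level is thus only a bound, and by the means over the 3 arrays after loess the probe read at least 1.45-fold lower in G200 than in control, which a dye bias could also affect because the dyes were not exchanged. Mean normalized log2 levels were 6.48 in green and 5.94 in red. Without dye normalization the mean log2 ratio was -0.30, and the gene was not called.

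Klk1c9 and Klk1c12 were well above background in neither colour on any array. Klk1c9 had log2 ratios of 0.17, -0.10 and -0.07, and Klk1c12 had -0.43, -0.28 and -0.23. The green intensity of Klk1c12 was 26, 25 and 20, and its red intensity was -6, 0 and -3. No fold is given for Klk1c9 and Klk1c12, and no direction is read from their ratios.

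**Figure D1:**
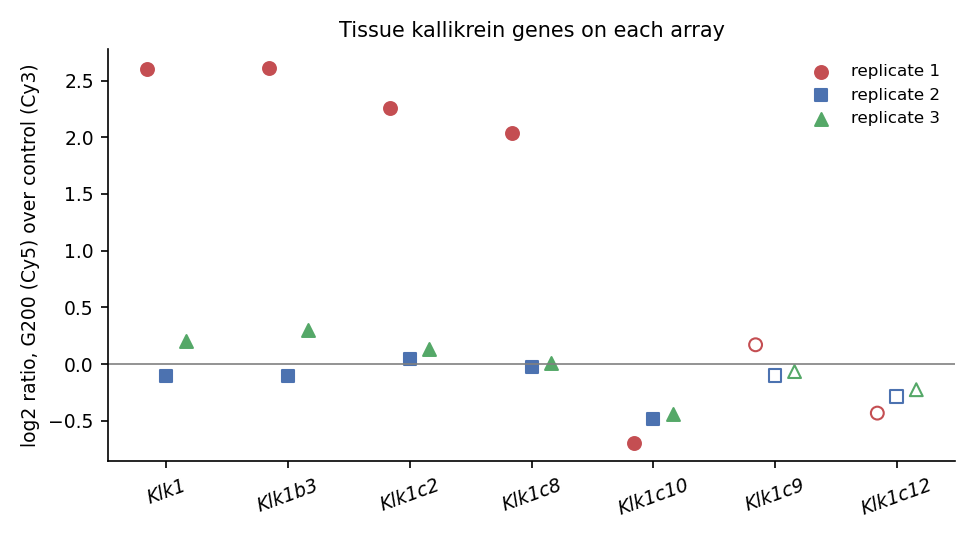
Log2 ratio of G200 (Cy5) over control (Cy3) for the 7 kallikrein genes, with 1 symbol per array; hollow symbols mark genes that were not well above background. Klk1, Klk1b3, Klk1c2 and Klk1c8 lie between 2.03 and 2.61 on replicate 1 and between -0.11 and 0.30 on the other arrays.

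**Figure D2:**
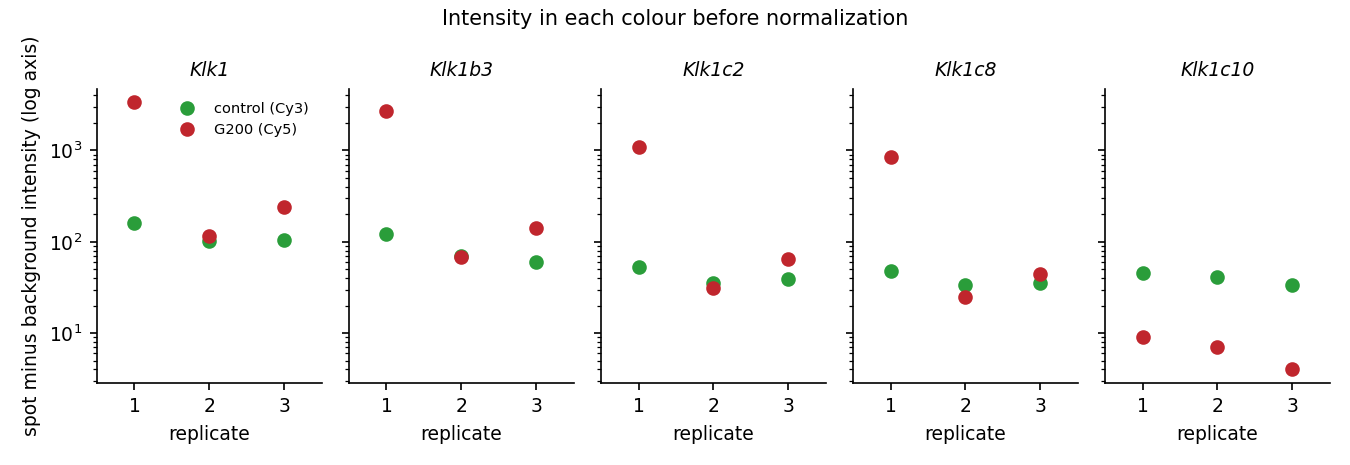
Spot intensity minus local background in each colour, before normalization and on a log axis, for the 5 kallikrein genes above background. The red point of replicate 1 stands above all others for Klk1, Klk1b3, Klk1c2 and Klk1c8, and the red points of Klk1c10 lie below the green ones on all 3 arrays.

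The median log2 ratio over the 7 genes was 2.03 on replicate 1, -0.11 on replicate 2 and 0.01 on replicate 3. Over all 14179 genes tested the medians were -0.07, -0.04 and -0.05. The family median of the mean log2 ratio was 0.67, and it was -0.01 without replicate 1. Probes with at least 5 spots give the error within an array. For 403 such probes with a mean log2 intensity from 5.5 to 6.5, which is the range of Klk1c10, the median SD between spots was 0.099, 0.101 and 0.095 on replicates 1, 2 and 3. For 392 probes with a mean log2 intensity from 6.5 to 7.5, the median SD between spots was 0.081, 0.088 and 0.082 on replicates 1, 2 and 3. For 290 probes from 7.5 to 8.5, it was 0.070, 0.069 and 0.075 in the same order. These SDs cover the error of a spot and not the spread between animals.

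limma called 37.5% of all tested genes at an adjusted p under 0.05, with 11.5% higher and 26.0% lower in G200. Of the called genes 30.6% were higher, and 79.6% were when arrays were centred on the median in place of loess and 10.9% without replicate 3. Of the 5 kallikrein genes tested, 0 were called higher and 1, Klk1c10, was called lower; without dye normalization Klk1, Klk1b3 and Klk1c2 were called higher and Klk1c10 was not called. Nothing is read from this count, because the genes were chosen by the same contrast. The methods of the study compare groups with unequal variance. Because each array pairs both groups, the methods' t-test was run here in another form, on the log ratios against 0, and it called 4472 genes without adjustment and 2 after Benjamini-Hochberg adjustment.

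Klk1c3, a neighbour of Klk1 that is outside the 7 genes, had log2 ratios of 2.62, 0.04 and 0.53 on replicates 1, 2 and 3. Its red intensity was 4041, 134 and 294.5, and its green intensity was 193, 102 and 96. It was the only other kallikrein gene of 10 with a probe that passed the filter on dim probes. The probes of Klk4, Klk6, Klk7, Klk8, Klk9, Klk10, Klk11 and Klk12 were well above background in neither colour on any array, and that of Klk13 was so in green on 1 array. Their log2 ratios lay between -0.25 for Klk7 and 0.14 for a second probe of Klk7.

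The kallikrein genes lie together on chromosome 1 of the GRCr8 assembly. In that order Klk1c12 and Klk1c10, which had no high array, come before Klk1c2 and Klk1c8. Klk1c9, not well above background, lies between Klk1c8 and Klk1, and Klk1c3 and Klk1b3 follow. Probes with high values on replicate 1 thus belong to genes on both sides of a gene whose probe lacked such signal.

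**Figure D3:**
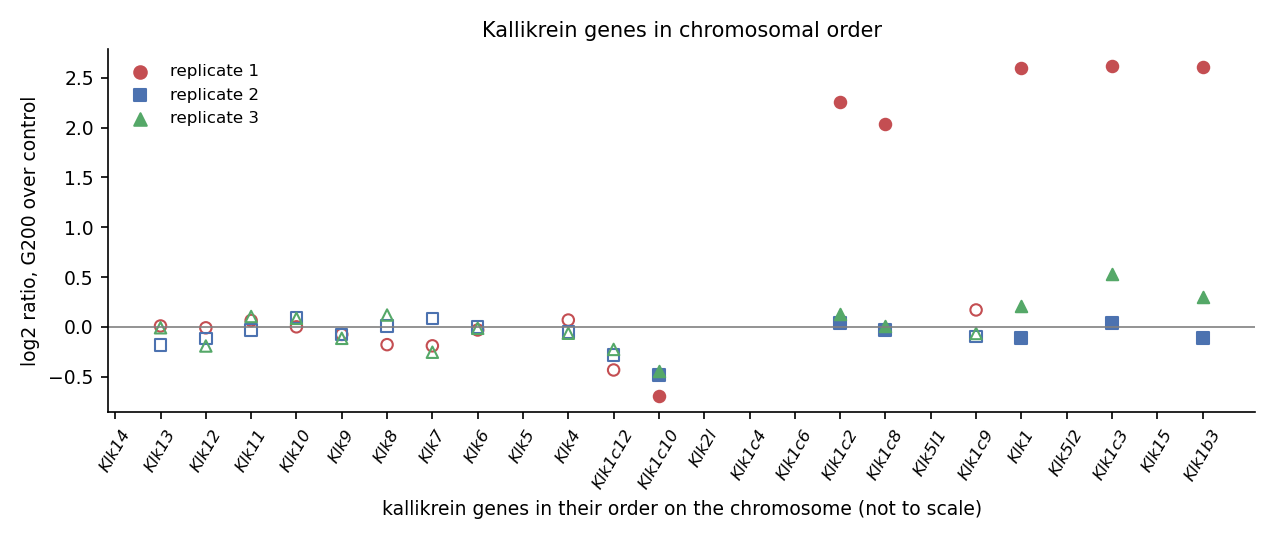
Log2 ratio of G200 over control for kallikrein genes in chromosomal order (not to scale), with 1 symbol per array; hollow symbols were not tested because of low signal, and names without symbols have no probe matched. Klk1c2, Klk1c8, Klk1, Klk1c3 and Klk1b3 exceed 2 on replicate 1, while Klk1c9 between them is at 0.17.

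The promoters of the group are closely alike, and they are shown for the genes matched. RefSeq promoters (GRCr8, read 5′ to 3′ on the strand of the gene) were matched for 6 of the 7 genes and for Klk1c3; Klk1c9 was not matched. The first capitals mark AGGGCCCTCCCCT, the longest stretch present in all 9 promoters of the Klk1 group in the table, and the second mark TTTAAA; each sequence runs for 140 bases from the first. In Klk1 the last 22 bases, with TTTAAA among them, lie after the annotated gene start, whereas the other stretches end before it.
Klk1: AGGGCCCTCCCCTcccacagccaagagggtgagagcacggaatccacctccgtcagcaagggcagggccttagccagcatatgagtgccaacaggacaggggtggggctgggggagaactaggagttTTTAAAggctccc
Klk1b3: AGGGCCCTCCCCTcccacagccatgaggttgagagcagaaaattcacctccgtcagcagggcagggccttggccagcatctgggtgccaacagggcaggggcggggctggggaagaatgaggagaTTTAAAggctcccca
Klk1c2: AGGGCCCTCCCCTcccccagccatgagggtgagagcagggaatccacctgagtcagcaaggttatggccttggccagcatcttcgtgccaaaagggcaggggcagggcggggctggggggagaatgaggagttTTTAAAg
Klk1c8: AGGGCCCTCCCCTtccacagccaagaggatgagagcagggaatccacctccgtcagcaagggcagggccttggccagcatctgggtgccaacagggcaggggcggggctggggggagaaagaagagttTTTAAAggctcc
Klk1c3: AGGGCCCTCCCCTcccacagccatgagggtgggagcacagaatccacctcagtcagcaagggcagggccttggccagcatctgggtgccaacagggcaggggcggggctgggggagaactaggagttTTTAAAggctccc
Klk1c10: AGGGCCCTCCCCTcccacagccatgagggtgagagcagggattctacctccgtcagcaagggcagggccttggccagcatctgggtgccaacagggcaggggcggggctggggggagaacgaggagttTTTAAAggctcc
Klk1c12: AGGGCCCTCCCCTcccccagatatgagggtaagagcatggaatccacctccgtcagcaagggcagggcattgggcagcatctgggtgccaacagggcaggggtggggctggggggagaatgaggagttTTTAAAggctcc
The Klk1 stretch lies at chr1:103779034-103779173 on the plus strand. The Klk1b3 stretch lies at chr1:103845495-103845634 on the plus strand. The Klk1c2 stretch lies at chr1:103633028-103633167 on the minus strand. The Klk1c8 stretch lies at chr1:103684123-103684262 on the plus strand. The Klk1c3 stretch lies at chr1:103807954-103808093 on the plus strand. The Klk1c10 stretch lies at chr1:103543652-103543791 on the minus strand. The Klk1c12 stretch lies at chr1:103518734-103518873 on the minus strand.
The 13 bases of AGGGCCCTCCCCT were taken from these promoters themselves, so their presence in them is a description. Searched on both strands, they occurred in 16 of 33469 promoters (0.0478%), 9 of them of the Klk1 group. TTTAAA, whose letters read the same on both strands, was picked after the promoters were read and occurred in 13.6% of all promoters. TATAAA, searched on both strands, occurred in 14.2% of all promoters and in 0 of the 7 kallikrein promoters shown.

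Over the stretches shown, identity to Klk1 was 93.6% for Klk1c3, 91.5% for Klk1c10, 90.8% for Klk1c8, 88.7% for Klk1c12, 86.6% for Klk1b3 and 80.1% for Klk1c2. All 21 pairs lay between 79.1% and 95%. How this likeness relates to the signal of the genes was not tested.

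Whether a probe also bound transcripts of a related gene was not tested, since no probe sequence was used here. On replicate 1, where the red intensity of Klk1 was 3357.5, that of the Klk1c9 probe was 12, that of the Klk1c10 probe 9 and that of the Klk1c12 probe -6, none of them well above background. The probes of Klk1, Klk1b3, Klk1c2, Klk1c3 and Klk1c8 moved together, and signal from 1 transcript read by several probes cannot be told apart from several transcripts in these data. The 5 spots lay between 49.2 and 459 spot positions from each other on an array of 532 rows and 85 columns, and 0 outlier marks were set on them.

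The green colour of replicate 1 was also brighter at these 5 probes. Green intensity on replicate 1 was 1.38 to 1.95 times the mean of the other arrays, while red intensity was 18.9 to 25.5 times. The green excess amounted to between 1.48% and 2.33% of the red intensity at the same spot. Over all spots that are not controls, the median green intensity was 35, 37 and 35.5 on replicates 1, 2 and 3, and the median red intensity was 54.5, 29.5 and 39. The part of the brighter red channel or of red light read in green in these values was not tested.

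Among all tested genes, 6 had a log2 ratio above 2 on replicate 1, and 0 did so on replicate 2 or 3. These were Klk1, Klk1b3, Klk1c2, Klk1c3, Klk1c8 and an unnamed transcript, XM_002725574, at 2.29, -0.04 and 0.39. Ranked by the gap between replicate 1 and the higher of the other arrays, the leading genes were Klk1 with 2.39, Klk1b3 with 2.31, Klk1c2 with 2.12, Klk1c3 with 2.09 and Klk1c8 with 2.02. The ranking uses the values that chose the genes and adds no support. Across genes, the log2 ratios of replicate 1 correlated with those of replicate 2 at r = 0.778 and with those of replicate 3 at r = 0.827, and replicates 2 and 3 at r = 0.904. Genes are not independent replicates, and these values carry no p.

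**Figure D4:**
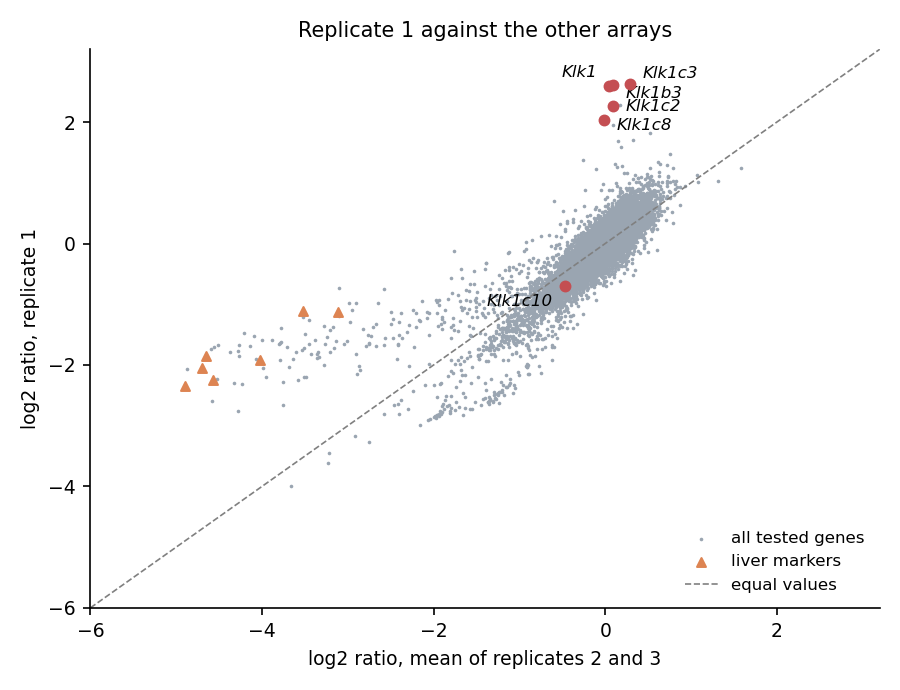
Log2 ratio on replicate 1 against the mean of replicates 2 and 3 for 14179 tested genes, with kallikrein genes as red circles, liver markers as orange triangles and a dashed line of equal values. Klk1, Klk1b3, Klk1c2, Klk1c3 and Klk1c8 lie above 2 on replicate 1 at a value near 0 on the other arrays, and the liver markers lie above the line on the negative side.

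The 5 named genes nearest to Klk1 over the 3 arrays were Klk1b3, Klk1c3, Klk1c2, Klk1c8 and Or2n1el1, an olfactory receptor gene. Their root mean square distances from Klk1 were 0.055, 0.20, 0.22, 0.35 and 0.38 log2 units. Or2n1el1 had log2 ratios of 1.95, -0.05 and 0.22.

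Other genes of the pathway were taken from a list. It was chosen with earlier results of these data known, so its counts are a description. Of 41 genes of the kallikrein-kinin list with a probe, including the other kallikreins, 26 were tested; 5 were called higher and 10 lower, which is 57.7% beside 37.5% of all tested genes. Without replicate 3, 9 were called, and the share over all genes fell to 11.1%. The median of mean log2 ratios of the list was -0.08, beside -0.05 for all genes tested.

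Kininogens, the precursors of kinins made chiefly by liver, fell in G200 in 3 of 3 tested genes, beside 26.0% of all tested genes called lower. Kng1 had log2 ratios of -1.09, -1.36 and -1.97 (adjusted p = 0.00189 by limma). Kng2 had -0.82, -1.59 and -1.98 (adjusted p = 0.00422 by limma). Kng2l1 had -1.23, -1.77 and -2.38 (adjusted p = 0.00205 by limma). All 3 genes were lower on 3 of 3 arrays, and replicate 1 had the smallest fall. The red signal of Kng1 and Kng2l1 was well above background on only 2 of the 3 arrays, and with the Feature Extraction ratio the mean log2 ratio went from -1.47 to -3.49 for Kng1 and from -1.79 to -3.45 for Kng2l1. That of Kng2 went from -1.46 to -2.28 with offset 0 and to -2.71 with the Feature Extraction ratio. Without dye normalization the means were -0.79 for Kng1, -1.04 for Kng2l1 and -0.71 for Kng2, and of these Kng2 was not called. With both colours required to be well above background, Kng1 and Kng2l1 were not tested, and 11 genes of the kallikrein-kinin list were called in place of 15.

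The bradykinin receptors Bdkrb1 and Bdkrb2 were well above background in neither colour. Their mean log2 ratios were 0.08 and 0.01. Of 4 listed kallikrein activators, 2 were tested and 2 were called lower, beside 26.0% of all tested genes. Prcp was well above background in neither colour, and no probe was matched for F11. Klkb1, plasma prekallikrein, had log2 ratios of -0.62, -0.66 and -0.98 (adjusted p = 0.00264 by limma). F12, which activates it, had -2.28, -3.38 and -4.13 (adjusted p = 0.00141 by limma). The red signal of Klkb1 was well above background on only 1 of the 3 arrays, its mean went from -0.75 to -2.70 with the Feature Extraction ratio, and it was not called without dye normalization.

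Of 8 inhibitors, 1 was called higher and 4 lower (62.5%, beside 37.5% of all tested genes). Serpina3c, a relative of the kallikrein-binding protein, had log2 ratios of -1.21, -2.72 and -4.32, and Serpina4, kallistatin, had -1.14, -2.03 and -2.74. Serping1, the inhibitor of plasma kallikrein, had -0.48, -0.44 and -0.23, and A2m had -0.29, -0.31 and -0.26. Spint2, an inhibitor of membrane proteases, had 0.55, 0.11 and 0.44. Their adjusted p-values by limma were 0.0102, 0.00399, 0.0128, 0.0170 and 0.0303 in this order. Spint2 and A2m were not called without replicate 1 or without replicate 3. The red signal of A2m was well above background on only 2 of the 3 arrays, and its mean went from -0.29 to -0.80 with offset 0 and to -1.27 with the Feature Extraction ratio. A2m was also not called under median centring, Spint2 with offset 0, with the Feature Extraction ratio or with separate channels, and Serpina3c under the robust variance model. Serping1 was higher in G200 when arrays were centred on the median in place of loess.

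Of 12 tested kinin-degrading enzymes, 4 were called higher and 1 lower (41.7%, beside 37.5% of all tested genes). Mme, neprilysin of the proximal brush border, had log2 ratios of 0.67, 0.54 and 0.63. Anpep had 0.78, 0.21 and 0.63, Cpd 0.44, 0.09 and 0.50, and Dpp4 0.29, 0.26 and 0.48. Under median centring the means went from 0.61 to 1.33 for Mme, from 0.54 to 1.13 for Anpep and from 0.35 to 1.08 for Dpp4. The mean of Cpd went from 0.34 to 0.88 with offset 0, 1.17 with the Feature Extraction ratio and 0.77 without dye normalization. Thop1 had -0.46, -0.18 and -0.31, and it was higher in G200 under median centring. Adjusted p-values by limma were 0.0019 for Mme, 0.0155 for Anpep, 0.0348 for Cpd, 0.0157 for Dpp4 and 0.0234 for Thop1, and of these only Mme was called without replicate 3; Cpd and Thop1 were also not called without replicate 1, nor Cpd under median centring. Ace, angiotensin-converting enzyme, which also breaks down kinins, had -0.49, 0.33 and 0.12 and an adjusted p of 0.947 by limma.

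Of 8 tested targets of the kallikreins, 0 were called higher and 3 lower (37.5%, the same share as over all tested genes). Agt, angiotensinogen, had log2 ratios of -1.26, -1.04 and -1.24. Its mean went from -1.18 to -0.42 under median centring and to -0.07 without dye normalization, where it was not called. Plg, plasminogen, had -1.88, -2.96 and -3.77. Prss8, prostasin, an activator of the epithelial sodium channel, had -0.60, -0.26 and -0.51, and was higher under median centring. Adjusted p-values by limma were 0.000734 for Agt, 0.00203 for Plg and 0.0102 for Prss8; Prss8 was not called without replicate 3. The sodium channel subunit Scnn1b, with the highest mean of the tested targets, had 0.28, 0.12 and 0.12.

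**Figure D5:**
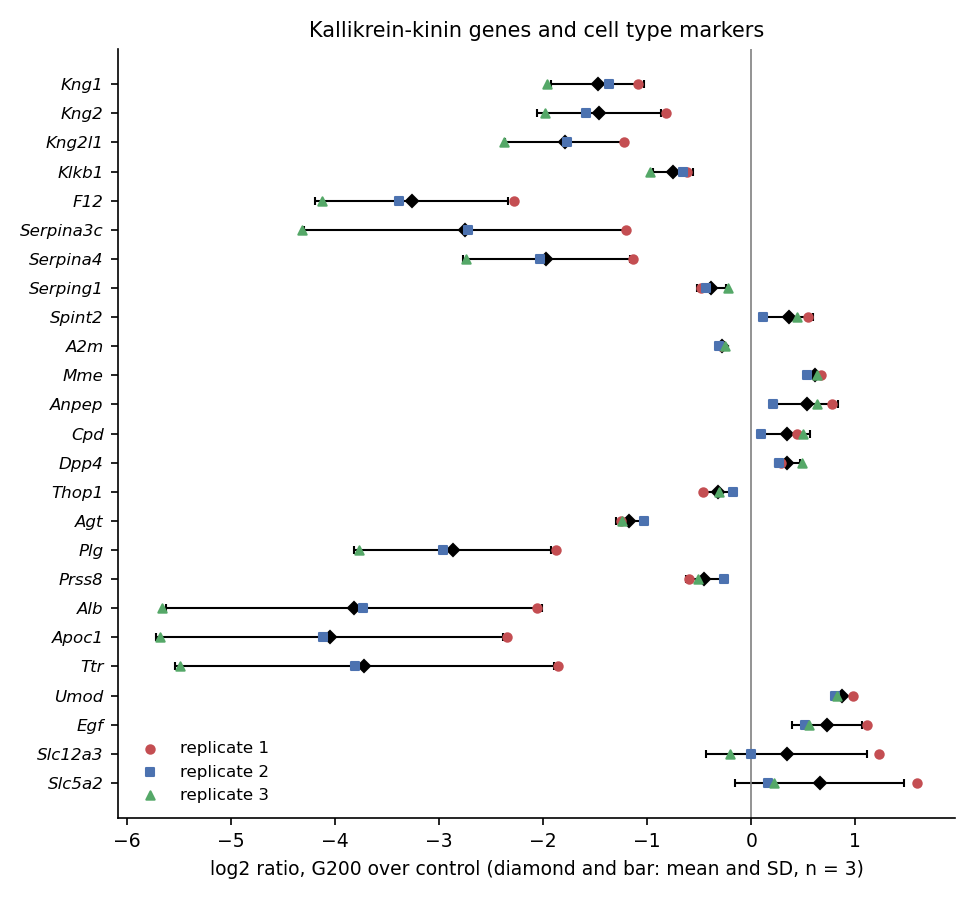
Log2 ratio of G200 over control for kallikrein-kinin genes and cell type markers; coloured symbols are the 3 arrays and diamonds with bars are the mean and SD (n = 3). Kininogens, F12, Serpina3c and Plg fall with Alb, Apoc1 and Ttr, and Slc12a3 and Slc5a2 are high on replicate 1.

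Markers of liver fell with the kininogens, F12, Klkb1, Serpina3c, Serpina4 and Plg. Of 8 liver markers, 7 were tested and 7 were called lower, beside 26.0% of all tested genes, and Tat, a defining marker of liver, was well above background in neither colour. Ttr, the brightest, had log2 ratios of -1.86, -3.80 and -5.49, and Apoc1, with the largest change, had -2.35, -4.12 and -5.68. The summed intensity of the list was 68442, 102924 and 101844 in green and 57719, 11698 and 4799.5 in red on replicates 1, 2 and 3. The part of liver transcripts in the falls of the kinin pathway was not tested, and fewer cells of a type and less RNA per cell cannot be told apart in tissue RNA. The array with the high kallikrein values was the one with the smallest fall of liver markers.

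Among markers of the nephron, Hsd11b2, the brightest of the connecting tubule list, had log2 ratios of 0.44, -0.13 and -0.03. Calb1 of that list, which did not pass the filter on dim probes, had 0.97, -0.08 and 0.17. Its red intensity was 201, 9 and 33.5 on replicates 1, 2 and 3. S100g had -0.01, 0.51 and -0.02, and Atp2b1 had -0.44, -0.17 and -0.10. Of the 5 tested genes of that list, which marks the segment where Klk1 is made, 0 were called, beside 37.5% of all tested genes. The summed red intensity of the list was 8698, 3633 and 4941, and the green sum was 2497, 2568 and 2496. Of all tested genes, 11.5% were called higher. In the distal convoluted tubule list 1 of 2 tested genes (50%) was called, Egf, the brightest, with 1.11, 0.52 and 0.56. The other, Slc12a3, had 1.23, -0.00 and -0.20, with a red intensity of 1685.5, 175 and 239.5, and was not called. The red sum of the distal convoluted tubule list was 4014, 982 and 1302, and its green sum was 614, 544 and 524. The red sum was highest on replicate 1 for every nephron list, as was the median red intensity of all spots, though the size of the difference varied between lists, and its part in the kallikrein values was not tested.

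In the thick ascending limb list 2 of 4 genes rose (50%, where 37.5% of all tested genes were called and 11.5% called higher), with Umod the brightest at 0.98, 0.81 and 0.82. Aqp2, the brightest principal cell marker, had -0.36, -0.03 and -0.50, and 0 of 3 tested genes of its list were called. Slc4a1, an anion exchanger of intercalated cells and red blood cells, was called lower after loess with -0.65, -0.51 and -0.89. It was 1 of 3 tested genes of its list, beside 26.0% of all tested genes called lower. Before normalization its red intensity was 1225.5, 716 and 682, and its green intensity was 670, 706 and 646. Red was thus not below green on any array, and the lower ratio was seen only after normalization. Of 5 proximal tubule genes 2 rose (40%, beside 37.5% of all tested genes called and 11.5% called higher). Cubn had 0.50, 0.10 and 0.76, while the brightest, Slc34a1, had -0.01, 0.11 and -0.27. Of 2 podocyte genes 0 were called, and the brightest, Podxl, had 0.72, 0.05 and 0.30.

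Markers of glands in which the kallikrein paralogs are abundant were measured too. The 2 salivary markers with a probe, Smgc and Bpifa2, were well above background in neither colour on any array. Their summed red intensity was 22.5, 15 and 9.5 on replicates 1, 2 and 3. Of 7 pancreas markers 6 were well above background in neither colour. The other, Ctrb1, was called lower with -1.01, -0.63 and -0.89, beside 26.0% of all tested genes called lower. Of 4 male accessory gland markers, 1 was tested, Spink1l, with 0.13, -0.68 and -0.82, and it was not called. Spink1l was well above background in both colours on all 3 arrays, and the summed red intensity of its list was 715.5, 191 and 242, beside 284, 295.5 and 297.5 in green.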

How the data were processed

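Kidney RNA of G200 and control rats was measured on 3 arrays with 2 colours. Spot and background intensity values were deposited per array, per the file headers as median pixel values from Feature Extraction 11.5.1.1, while the labels name version 9.3.2.1. The log10 ratio deposited by the authors was used as an alternative only. Intensities were corrected with normexp (offset 50) and loess in limma 3.58.1 (R 4.3.3). Control spots and spots marked as outliers were left out, and spots of a probe were averaged. A probe was tested when over 0.5 of its spots were well above background on all 3 arrays in 1 colour, and the brightest probe stood for a gene. Of 30367 probes, 18355 matched a RefSeq symbol of GRCr8 by accession. The mean log2 ratio was tested against 0 with lmFit and eBayes and Benjamini-Hochberg adjustment over 14179 genes, and the number of arrays limits the precision. The fit was tested on simulated data, where it recovered smaller changes less often than larger ones, so a gene that was not called may still differ. Promoters were aligned with Biopython 1.88.

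The labels give 3 rats per group and nothing more on how RNA was paired on arrays, so p-values measure the spread between these arrays, and whether it holds the spread of 3 controls is not known. The members and the gene lists were chosen with earlier results of these data known. Named were all 7 kallikreins, other Klk genes with a probe, and the called, highest and lowest genes of the pathway lists. The brightest and most changed called gene of each marker list were named too. So were the 5 genes nearest to Klk1 in root mean square difference among genes with a symbol. Some genes of the lists are not reported here. Other genes were chosen after their values were seen. Alternatives changed the background correction, dye normalization, filter, probe rule, variance model, test, channel model and arrays.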

Additional observations from a re-analysis of the deposited data

How the results depend on the processing

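Klk1, Klk1b3, Klk1c2 and Klk1c8 were higher on replicate 1 than on the other arrays under every background correction and dye normalization tried, with log2 ratios from 2.03 to 4.08 on that array and from -0.25 to 1.02 on the others. The count of genes called, 5318, became 8314 without dye normalization and 2 under the methods' t-test with adjustment, and lay between 1575 (without replicate 3) and 4977 (without replicate 2) when 1 array was left out, with 3538 without replicate 1. With the colours as separate channels and no replicate block it was 4098. Median centring moved the median of all genes from -0.05 to 0.27 and no normalization to 0.62, and the share of called genes that were higher went from 30.6% to 79.6% and 96.3%, and to 10.9% without replicate 3. Relative to that median, the family median was 0.72, and it became 0.68 under median centring and without dye normalization, 1.00 with offset 0, 1.20 with the Feature Extraction ratio, 0.03 without replicate 1, 1.08 without replicate 2 and 1.05 without replicate 3.

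The members called, 1, became 3 without dye normalization (Klk1, Klk1b3 and Klk1c2, while Klk1c10 lost the call), 0 with both colours above background (where Klk1c10 was not tested), 2 with no filter (Klk1c10 and Klk1c12) and 0 under the adjusted t-test. The kallikrein-kinin genes called, 15, became 11 with both colours above background, where Kng1, Kng2l1, Klkb1 and A2m were not tested, 0 under the adjusted t-test and 9 under the unadjusted one, and lay between 9 and 15 with 1 array left out. Of 18 named pathway and target genes called, 7 lost the call without replicate 3, 4 without replicate 1 and 0 without replicate 2, and 18 lost it under the adjusted t-test. Under the unadjusted t-test 7 lost it, namely Kng2, Serpina3c, Serpina4, Spint2, Cpd, Anpep and Thop1. Spint2 and Thop1 lost it with offset 0, with the Feature Extraction ratio and with separate channels, Dpp4 with the Feature Extraction ratio, A2m under median centring, Cpd under median centring and with separate channels, and Serpina3c under the robust variance model. The family median lay between -0.01 and 1.02 with 1 array left out.

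Genes with low red signal depended on the background correction. Klk1c10, at -0.54, became -1.70 with offset 0, -3.14 with the Feature Extraction ratio and -0.30 without dye normalization. Klk1c12, at -0.31, became -1.91 with offset 0, -0.20 without correction, -0.97 with the Feature Extraction ratio, -0.56 under median centring and -0.21 without dye normalization. Klk1c9, at 0.00, became 0.32 with the Feature Extraction ratio and -0.22 under median centring. Serping1 turned to 0.40, Thop1 to 0.29 and Prss8 to 0.33 under median centring, and Mme rose to 1.33, Dpp4 to 1.08, Anpep to 1.13 and Spint2 to 1.10. Without dye normalization Serping1, Thop1 and Prss8 were 0.75, 0.65 and 0.68, and A2m was 0.027, while Mme was 1.69, Dpp4 1.44, Anpep 1.48 and Spint2 1.45. The cause was not tested, and low signal over background limits Klk1c9, Klk1c10, Klk1c12, Kng1, Kng2l1, Klkb1 and A2m. Kng2, Klkb1 and Agt lost the call without dye normalization. In that setting Serpina3c went from -2.75 to -1.72, Serpina4 from -1.97 to -1.07 and Plg from -2.87 to -1.82.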

Other observations

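Some further genes, chosen after their values were seen, also had their highest log2 ratio on replicate 1. Ptpro, a phosphatase of podocytes that is in none of the lists, had 1.70 on replicate 1, 0.32 on replicate 2 and 0.33 on replicate 3. Slc5a2, the glucose carrier of the early proximal tubule, had 1.59, 0.16 and 0.22, and Slc12a3, the thiazide-sensitive carrier of the distal convoluted tubule, had 1.23, -0.00 and -0.20. Neither carrier was called, with adjusted p-values of 0.106 and 0.341 by limma. Calb1, a connecting tubule marker that did not pass the filter on dim probes, had 0.97, -0.08 and 0.17. A log2 ratio above 1 was reached by 55 genes on replicate 1, 5 on replicate 2 and 19 on replicate 3. These values were not tested as a group.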
